A study of Mus musculus with 8 samples.

Results

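The genes described here are 6 members of the antigen presentation pathway of major histocompatibility complex (MHC) class II: H2-Aa, H2-Ab1, H2-Ea, H2-Eb1, H2-DMa and Cd74. They were chosen by name, and every probe set that the platform annotation gives to one of these symbols alone was kept and is described apart. This gave 13 probe sets of the 13069 on the arrays that are not hybridisation controls, and 6 of the 6137 genes with a probe set of their own. H2-Aa had 5 probe sets, H2-Ea 3, H2-Eb1 2, and H2-Ab1, H2-DMa and Cd74 1 each. On chromosome 17 lie, in this order, H2-DMa, H2-Ab1, H2-Aa, H2-Eb1 and H2-Ea, while Cd74 lies on another chromosome.

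The study measured RNA of epididymal fat, the visceral fat pad beside the epididymis, from 4 mouse lines on a pair of Affymetrix oligonucleotide chips, called A and B here. DU6 is an outbred line selected for high body weight, DU6i is an inbred line derived from DU6, DUKs is the unselected outbred control line, and DBA is an inbred strain whose substrain the labels do not give. Each line was 1 pool of RNA from 20 males aged 42 days, hybridised once to each chip, so no line has a replicate and no value below has an error from animals. DU6 and DU6i share their origin and are not independent lines.

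MHC class II molecules carry peptides from endosomes to the surface of B cells, dendritic cells and macrophages, where CD4+ T cells read them. Each molecule is a pair of an alpha and a beta chain: H2-Aa and H2-Ab1 code for the chains of the A molecule, and H2-Ea and H2-Eb1 for those of the E molecule. Cd74 codes for the invariant chain, which guides new class II molecules to endosomes and blocks their groove, and H2-DMa for the alpha chain of DM, which helps to exchange the remnant of the invariant chain for peptide. H2-Aa, H2-Ab1 and H2-Eb1 are among the most variable genes of the mouse. Alleles of the chains of A and E are inherited together as H2 haplotypes, and some haplotypes carry an H2-Ea that gives no E alpha chain. The RefSeq table lists H2-Ea as a transcribed pseudogene in its reference assembly, GRCm38.p6, which comes from C57BL/6J.

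No genotype, haplotype or probe sequence was used here, so the word haplotype stays background. A probe set that reads one allele better than another gives a signal that depends on the allele, and in these data a difference in transcript amount and a difference in sequence under the probes cannot be told apart. Of the 13 probe sets, 4 have names that end in _f_at, the maker's mark for a set that reads members of a gene family, and 6 end in _s_at, the mark for a set shared by similar transcripts. The chains of class II are similar enough that reads of one gene by another gene's probes are possible, and this was not tested. The 4 probe sets whose names begin with Msa, all on chip B, are drawn under those names in the plots and called in the text by the sequence record that the annotation gives for them: V00832 and K01923 for H2-Aa, V00834 for H2-Ea and X00702 for H2-Eb1.

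Signals are the deposited intensities, which include negative values. Signals below 1022.8 on chip A and 2258.25 on chip B were treated as background; each of these floors is the size that 95% of the negative signals of its chip stay under. A probe set counts as measured in 2 lines if either signal exceeds the floor. Where the lower signal does not, the floor takes its place and the ratio is a bound. Differences of 2-fold or more were counted. The arrays allow 1 kind of error only, from genes that 2 probe sets read above the floor in both lines: the SD of a single log2 ratio, called the technical SD here, was 0.44 between DU6 and DUKs (346 genes), 0.34 between DU6i and DBA (348 genes), and ranged up to 0.46 over the 6 pairs. It covers disagreement of probe sets, and no variation of animals or pools.

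Of the 13 class II probe sets, 12 were above the floor in at least 1 line and 8 in all 4 lines. In 7 of these 8 no pair of lines reached 2-fold: 4 of H2-Aa, 1 of H2-Eb1, and those of H2-Ab1 and Cd74. The other probe set above the floor in all lines, of H2-Aa, was high in DU6 and DU6i. Of the remaining 5, 1 of H2-Eb1 was above the floor in DUKs and DBA alone, 2 of H2-Ea in DBA alone and that of H2-DMa in DU6 alone, and 1 of H2-Ea was under it in every line. In these bulk samples, fewer cells of a type and less RNA per cell cannot be told apart. The plot of the signals shows each probe set on its own axis.

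**Figure D1:**
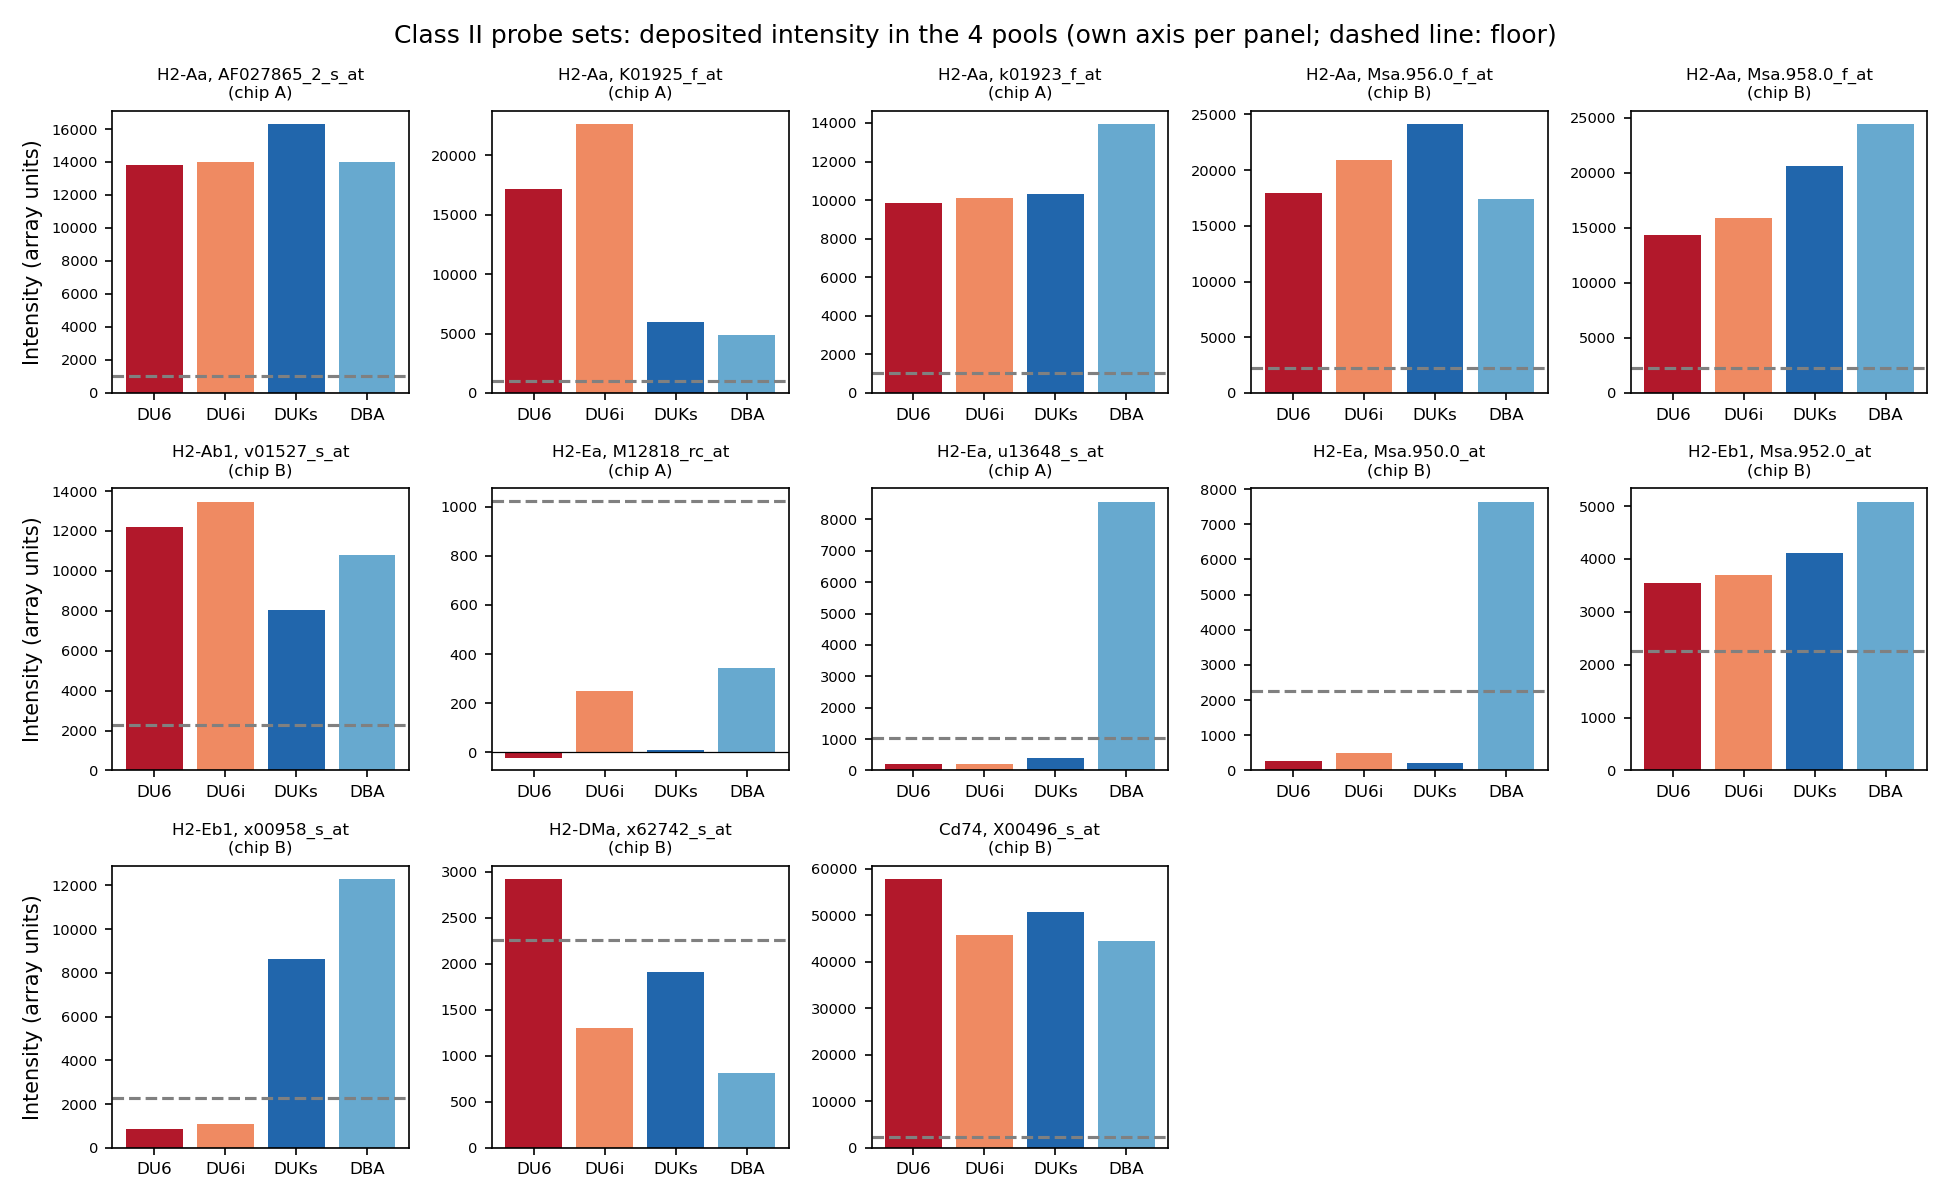
Deposited intensity (array units) of the 13 probe sets in the 4 pools, 1 panel and 1 axis per probe set, with the floor of the chip as a dashed line. Bars are single arrays with no replicate. K01925_f_at of H2-Aa is at 17195.5 and 22618.9 in DU6 and DU6i against 6004.7 and 4833 in DUKs and DBA, x00958_s_at of H2-Eb1 is above the floor in DUKs and DBA alone, and 2 of the 3 of H2-Ea are above it in DBA alone.

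The alpha chain of the A molecule was read by 5 probe sets, and on 4 of them no pair of lines reached 2-fold. AF027865_2_s_at of H2-Aa gave signals of 13817.9 in DU6, 14023.4 in DU6i, 16291.3 in DUKs and 13975.5 in DBA, so its highest line was 1.18-fold above its lowest. On chip B, the V00832 probe set gave 17963.9 in DU6, 20880.5 in DU6i, 24122.4 in DUKs and 17426.8 in DBA, a range of 1.38-fold. On AF027865_2_s_at no pair of lines differed by more than its technical SD, and on V00832 only DUKs vs DBA did, at 0.47 in log2 against an SD of 0.41.

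H2-Aa was also read on both chips through the same sequence record. The probe set k01923_f_at on chip A gave 9866.4 in DU6, 10104.8 in DU6i, 10323.3 in DUKs and 13936.5 in DBA. The K01923 probe set on chip B gave 14350.5, 15875.7, 20637.2 and 24395.9 in the same order of lines. Both put DBA highest, then DUKs, DU6i and DU6, with ranges of 1.41-fold and 1.70-fold. Their log2 ratios differed by 0.11 to 0.46 over the 6 pairs, which is about the technical spread. Several pairs differed by more than the technical SD. DU6 vs DBA was at -0.50 on chip A and -0.77 on chip B (SD 0.36), and DU6i vs DBA was at -0.46 and -0.62 (SD 0.34). DUKs vs DBA passed it on chip A only, at -0.43 (SD 0.41), and DU6 vs DUKs on chip B only, at -0.52 (SD 0.44).

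The remaining probe set of H2-Aa, K01925_f_at on chip A, gave 17195.5 in DU6, 22618.9 in DU6i, 6004.7 in DUKs and 4833 in DBA. Both lines of DU6 origin were above both other lines, and every line was above the floor. DU6 was 2.86-fold above DUKs (log2 ratio 1.52) and DU6i 4.68-fold above DBA (2.23). Crossing the lines, DU6 was 3.56-fold above DBA (1.83) and DU6i 3.77-fold above DUKs (1.91). These 4 ratios share arrays and are given side by side. Within each side the lines differed by less than the technical SD, by -0.40 in DU6 vs DU6i and 0.31 in DUKs vs DBA. Halving or doubling the floor could not move the ratios of K01925_f_at, since every signal was above the doubled floor. The ratio was also computed with the floor added to the signal, with quantile normalisation and with rescaling. Over these and the main setting it stayed between 1.37 and 1.88 in DU6 vs DUKs, and between 2.01 and 2.28 in DU6i vs DBA. Quantile normalisation turned the small difference between DU6 and DU6i to 0.25. Of 3787 probe sets of chip A that were above the floor in at least 1 line, 4 (0.106%) had both DU6 lines at least 2-fold above both other lines, K01925_f_at among them.

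For the beta chain of the A molecule both DU6 lines gave higher signals than both other lines, but their differences from DBA were within the technical SD. The single probe set of H2-Ab1, v01527_s_at, gave 12201.1 in DU6, 13464.2 in DU6i, 8014.7 in DUKs and 10785.5 in DBA. DUKs was lowest and DU6i highest, 1.68-fold apart (log2 ratio 0.75), and no pair reached 2-fold. DU6 was 1.52-fold above DUKs (0.61) and DU6i 1.25-fold above DBA (0.32), the second within the technical SD of that pair. DU6 over DBA was at 0.18, also within its SD of 0.36. The step from DBA to DUKs, 0.43 in log2, was just over its SD of 0.41.

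Both chains of the E molecule had probe sets that were near background in some lines and well above it in others. For its alpha chain, H2-Ea, u13648_s_at on chip A gave 195.4 in DU6, 218.5 in DU6i, 406.4 in DUKs and 8566 in DBA. The V00834 probe set on chip B gave 275.6, 502.4, 215.2 and 7640.1. On both chips DBA was above the floor and the other 3 lines were far below it. The signal of DBA was at least 8.38-fold above each other line on chip A (log2 ratio of the other line over DBA, -3.07) and at least 3.38-fold on chip B (-1.76). The larger bound on chip A came with the lower floor of that chip, so the 2 bounds have no order. With the floor doubled the bound on chip B was -0.76, short of 2-fold.

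Being above the floor in DBA alone was shared by 118 of 6529 probe sets on chip A (1.81%) and by 111 of 6540 on chip B (1.7%). The remaining probe set of H2-Ea, M12818_rc_at, gave -21.5 in DU6, 251.6 in DU6i, 9 in DUKs and 342.9 in DBA, all under the floor of chip A. It gives no ratio. Values under the floor have no order.

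For the beta chain of the E molecule, the 2 probe sets of H2-Eb1, both on chip B, gave different pictures. The probe set x00958_s_at gave 884.1 in DU6, 1089.7 in DU6i, 8626.5 in DUKs and 12279.2 in DBA. DU6 and DU6i were under the floor, and DUKs and DBA far above it. Both DU6 lines were at least 3.82-fold below DUKs (log2 ratio -1.93) and at least 5.44-fold below DBA (-2.44), and DUKs was 1.42-fold below DBA (-0.51, with an SD of 0.41). With the floor doubled the bound against DUKs was -0.93, short of 2-fold, and that against DBA -1.44. Above the floor in DUKs and DBA alone were 47 of 6540 probe sets of chip B (0.719%). Of 2288 probe sets of chip B above the floor in at least 1 line, 11 (0.481%) had both DU6 lines at least 2-fold below both others. Both counts include x00958_s_at.

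The other probe set of H2-Eb1, the one for X00702, gave 3543.6 in DU6, 3691.1 in DU6i, 4111.1 in DUKs and 5083.7 in DBA. All lines were above the floor and no step between neighbours was larger than the technical SD. DBA was highest and DUKs next, as on x00958_s_at. DU6 vs DBA and DU6i vs DBA were past the SD of their pairs, 0.36 and 0.34. The ratios were far smaller than on x00958_s_at, at -0.21 in DU6 vs DUKs, -0.46 in DU6i vs DBA, -0.52 in DU6 vs DBA and -0.16 in DU6i vs DUKs. DU6 and DU6i were thus above the floor on one probe set of H2-Eb1 and not on the other.

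Cd74 and H2-DMa code for helpers of class II, not for chains that present peptide. The probe set of Cd74, X00496_s_at, gave 57727.3 in DU6, 45751.5 in DU6i, 50727.4 in DUKs and 44364.5 in DBA. The lines lay within 1.30-fold, with a log2 ratio of 0.19 for DU6 over DUKs and 0.04 for DU6i over DBA, and no step between neighbours was larger than the technical SD. The widest difference, 0.38 for DU6 over DBA, was just over its SD of 0.36. Their order did not hold under other scalings: quantile normalisation turned DU6 vs DBA to -0.35 and DU6i vs DUKs from -0.15 to 0.60, and rescaling turned DU6 vs DUKs to -0.04.

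The probe set of H2-DMa, x62742_s_at, gave 2916.7 in DU6, 1304.1 in DU6i, 1905 in DUKs and 811.6 in DBA. Only DU6 was above the floor of chip B, a pattern of 72 of 6540 probe sets there (1.1%). DU6 was at least 1.29-fold above each other line (log2 bound 0.37), which is under the technical SD in DU6 vs DUKs and DU6 vs DU6i. With the floor halved, the log2 ratio of DU6 was 1.37 over DBA and 1.16 over DU6i, so a 2-fold difference of H2-DMa depended on the floor.

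Counted by pair, 10 of the class II probe sets were measured in DU6 vs DUKs. K01925_f_at was the 1 that was 2-fold or more higher, beside 3.91% of all measured probe sets, and x00958_s_at the 1 that was lower, beside 6.3% (10.2% in either direction). In DU6i vs DBA, of 11 measured, 1 was higher (K01925_f_at, beside 4.79%) and 3 were lower (x00958_s_at and 2 of H2-Ea, beside 6.68%), where 11.5% of all measured probe sets passed 2-fold. In DU6 vs DBA the same probe sets were counted, 1 of 12 higher (beside 3.79%) and 3 lower (beside 4.17%, with 7.96% in either direction). In DU6i vs DUKs 1 of 9 was higher, K01925_f_at (beside 3.39%), and 1 lower, x00958_s_at (beside 6.76%, with 10.1% in either direction).

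Between the lines of one side the counts were as follows. In DU6 vs DU6i none of the 9 measured reached 2-fold, beside 4.8% of all measured probe sets higher and 5.7% lower (10.5% together). In DUKs vs DBA 0 of 11 were higher, beside 6.01%, and 2 were lower, the probe sets of H2-Ea, beside 5.29% (11.3% together).

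The median log2 ratio of the class II probe sets was -0.14 in DU6 vs DUKs, beside 0.05 over all measured probe sets, and -0.46 in DU6i vs DBA, beside -0.03. These medians hold several probe sets of one gene and bounds. The 6 pairs share arrays and their counts do not support each other. The plot of log2 ratios shows the pairs side by side.

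**Figure D2:**
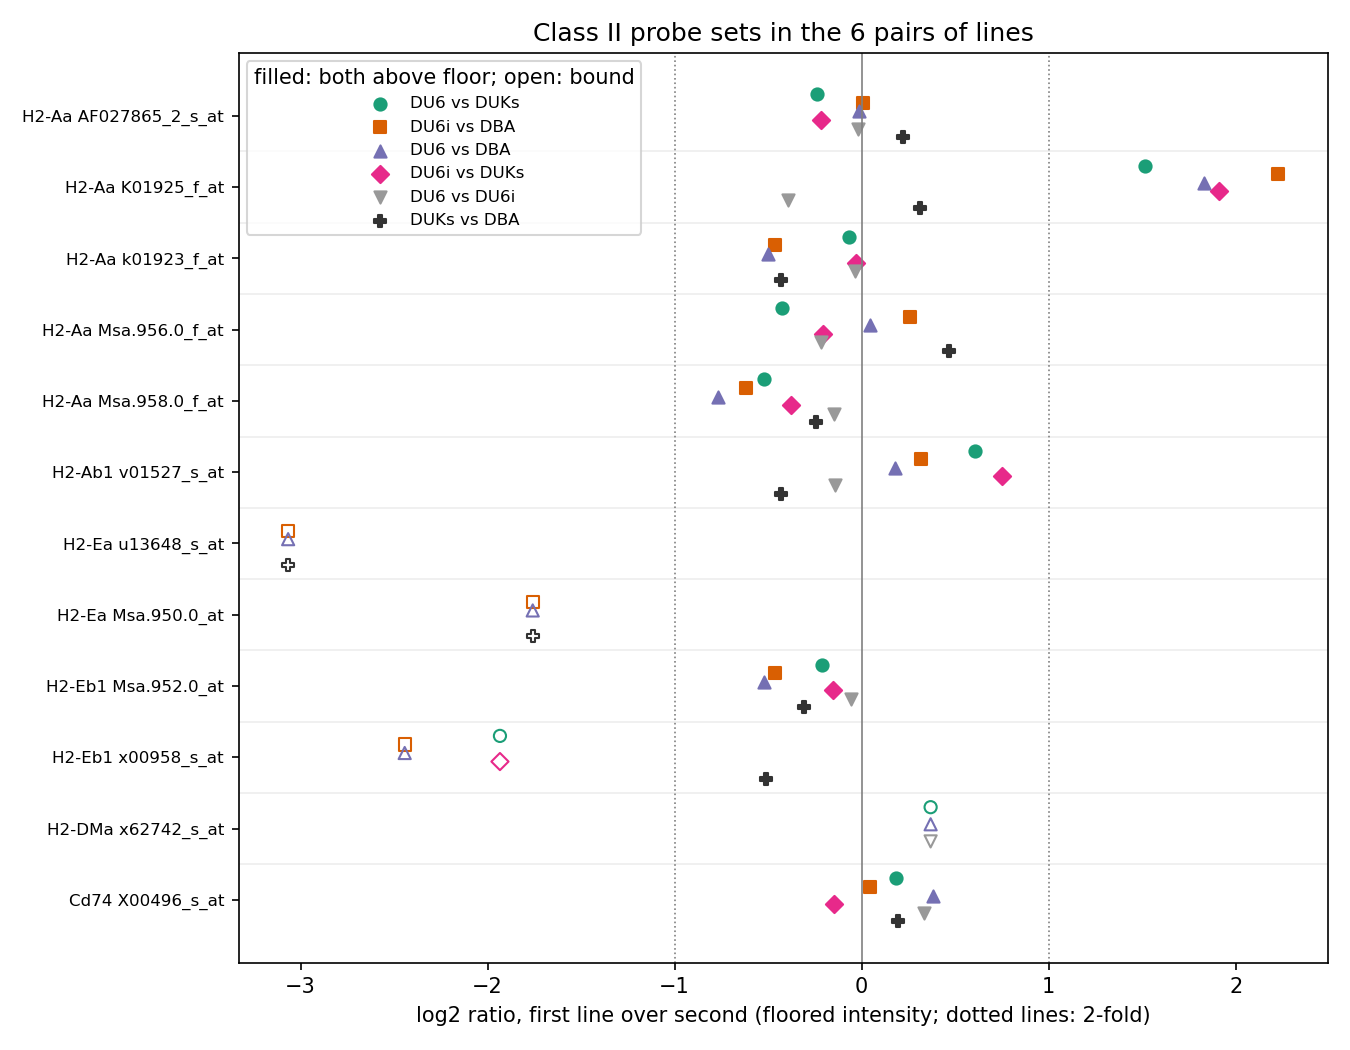
Log2 ratio of floored intensity (first line over second) of the 12 class II probe sets above the floor in at least 1 line, for the 6 pairs of lines; filled marks have both lines above the floor, open marks are bounds and dotted lines mark 2-fold. K01925_f_at lies from 1.52 to 2.23 in the 4 pairs across the sides, the bounds of x00958_s_at lie at -1.93 and -2.44, and those of H2-Ea at -3.07 and -1.76.

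The series title puts both DU6 lines on one side and DUKs with DBA on the other, and limma with Benjamini-Hochberg adjustment was fitted to that contrast. No probe set of 5267 passed an adjusted p of 0.05, and 252 (4.78%) had an unadjusted p under 0.05. Of the 9 class II probe sets that entered, 0 passed, and 2 had an unadjusted p under 0.05. K01925_f_at was higher in the DU6 lines by 1.87 in log2 (SE 0.30, limma adjusted p = 0.829), and both DU6 lines were above both others. The limma difference of x00958_s_at was -2.19 (SE 0.33, limma adjusted p = 0.829) and is set by the floor, at which both DU6 lines stood. In all 11 alternative fits that gave K01925_f_at a value its adjusted p lay between 0.405 and 0.999, and in the 10 that gave x00958_s_at one, between 0.684 and 0.999. The p-values measure the spread between 2 lines per side, and an exact permutation of 2 lines against 2 cannot go under 0.333.

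For the other 7 class II probe sets in that fit the limma difference lay between -0.57 (K01923 on chip B) and 0.46 (v01527_s_at), each with an adjusted p of 0.9998 from limma. Of these, the remaining 3 probe sets of H2-Aa lay at -0.26 (k01923_f_at), -0.12 (AF027865_2_s_at) and -0.08 (V00832), the X00702 probe set of H2-Eb1 at -0.34 and Cd74 at 0.12. The probe sets of H2-Ea and H2-DMa were above the floor in at most 1 line and did not enter.

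The split within genes was set beside that of other genes. The highest and the lowest log2 ratio among the probe sets of H2-Aa differed by 2.04 in DU6 vs DUKs, a gap that 11 of 512 genes with at least 2 measured probe sets reached (2.15%, H2-Aa included). In DU6i vs DBA the gap was 2.85, reached by 4 of 497 genes (0.805%), in DU6 vs DBA it was 2.60 (2 of 485 genes, 0.412%), and in DU6i vs DUKs 2.29 (4 of 511 genes, 0.783%). Between lines of one side, H2-Aa differed little among its probe sets: its gap was 0.37 in DU6 vs DU6i, which 48.7% of genes reached, and 0.90 in DUKs vs DBA, which 16.4% reached. A gene with more probe sets can show a wider gap, and H2-Aa has 5. Of the 8 genes with 4 or more measured in DU6 vs DUKs, 4 had a gap as large, H2-Aa included. Of the 7 in DU6i vs DBA it was 1, H2-Aa itself.

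For H2-Eb1 the gap between its 2 probe sets was at least 1.72 in DU6 vs DUKs (17 of 512 genes, 3.32%) and at least 1.98 in DU6i vs DBA (11 of 497, 2.21%), since x00958_s_at gave a bound. In DUKs vs DBA, where both probe sets were above the floor in both lines, the gap was 0.20, which 71.1% of genes reached. In both genes the gaps between probe sets were wider across the sides than in the pairs within a side where 2 or more probe sets were measured. These gaps were computed because the pattern had been seen, and they are a description with no test.

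**Figure D3:**
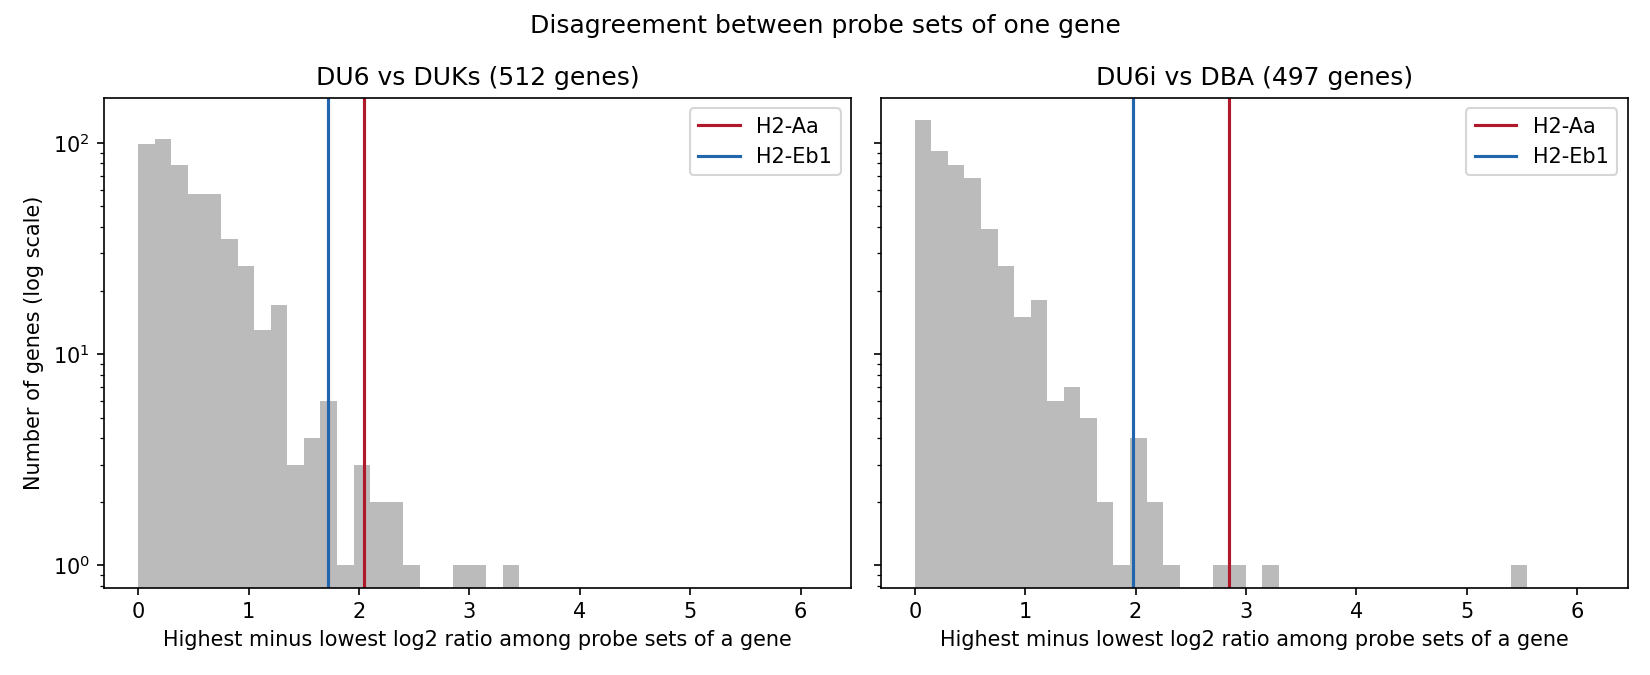
Gap between the highest and lowest log2 ratio among the measured probe sets of one gene, over 512 genes (left panel, DU6 vs DUKs) and 497 genes (right panel, DU6i vs DBA) (number of genes on a log scale). Vertical lines mark H2-Aa at 2.04 and 2.85 and H2-Eb1 at 1.72 and 1.98, in the thin right part of both distributions, whose medians are 0.41 and 0.34.

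The bases before the start of a class II gene hold short elements, among them the X box, bound by the RFX complex, and the Y box, bound by the factor NF-Y, which act together with the coactivator CIITA. RefSeq promoter windows of GRCm38.p6 were given for 3 of the 6 members, H2-Aa, H2-DMa and H2-Eb1, and not for H2-Ab1, H2-Ea and Cd74. The 150 bases before the start are printed 5′ to 3′ on the strand of the gene. Probe sets of H2-Aa, and those of H2-Eb1, differed in pattern within the gene, and a link of these bases to the signals was not tested. Capitals mark ATTGG, taken as the core of the Y box, and AACNGATG, taken as a core of the X box, on either strand.
H2-Eb1, chr17:34305717-34305866, plus strand: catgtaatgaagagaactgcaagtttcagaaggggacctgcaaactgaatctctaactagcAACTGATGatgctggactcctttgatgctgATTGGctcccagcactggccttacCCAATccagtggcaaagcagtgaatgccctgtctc
H2-Aa, chr17:34287824-34287973, minus strand: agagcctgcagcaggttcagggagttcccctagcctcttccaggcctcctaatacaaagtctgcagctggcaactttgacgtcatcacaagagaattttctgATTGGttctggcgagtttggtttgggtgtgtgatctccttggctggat
H2-DMa, chr17:34122682-34122831, plus strand: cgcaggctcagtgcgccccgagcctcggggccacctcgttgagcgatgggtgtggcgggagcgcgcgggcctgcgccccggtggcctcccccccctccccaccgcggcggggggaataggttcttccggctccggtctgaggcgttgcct

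H2-Eb1 held an AACNGATG 89 bases before the start and an ATTGG 59 bases before it, 30 bases apart, with another ATTGG on the opposite strand. H2-Aa held an ATTGG 48 bases before the start and no AACNGATG, and the window of H2-DMa shown here held neither. RefSeq gives H2-DMa another window, before a different start and not printed here. It held an ATTGG 198 bases before that start and no AACNGATG. Among 32851 RefSeq windows, each of 250 bases before a start and 50 after it, 37.4% held ATTGG and 2.32% held AACNGATG on either strand. Only 5 windows (0.0152%) had an ATTGG 20 to 40 bases after an AACNGATG on the same strand, a spacing chosen after the sequences were seen: those of H2-Eb1, H2-Eb2, H2-DMb1, H2-DMb2 and BC051142. These are letters of the C57BL/6J reference; the sequences of the 4 lines were not analysed here, and a match is not a bound site.

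The other genes of the pathway were taken from 5 lists, with 38 genes named, 28 with a probe set of their own and 15 measured in at least 1 of the main pairs. In DU6 vs DUKs, of 15 genes 1 was past 2-fold upward and 1 downward, against 9.31% of 3524 genes, with a median log2 ratio of 0.16 beside 0.10 over all genes. In DU6i vs DBA 1 was higher and 2 lower, against 11.1% of 3466 genes, with a median of 0.37 beside -0.08. In DU6 vs DBA 3 were higher and 0 lower, against 7.29%, and in DU6i vs DUKs 0 passed 2-fold, against 9.83%. Within a side, 1 was lower in DU6 vs DU6i, against 8.37%, and 1 of 14 was higher in DUKs vs DBA, against 10.9%.

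**Figure D4:**
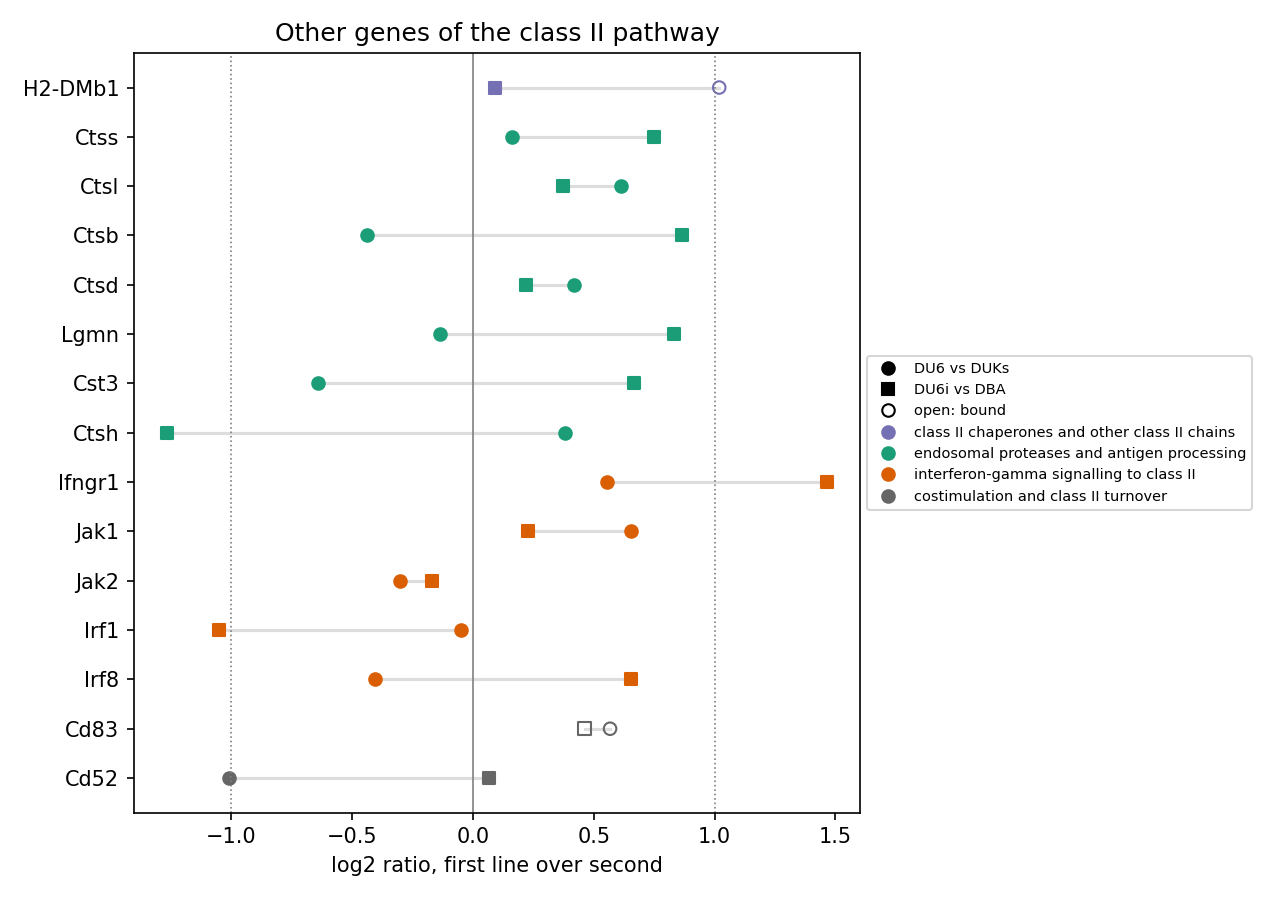
Log2 ratio (first line over second) of the 15 measured genes of the class II pathway lists in DU6 vs DUKs (circles) and DU6i vs DBA (squares), coloured by list; open marks are bounds and dotted lines mark 2-fold. Values past 2-fold are those of H2-DMb1 (1.02, a bound) and Cd52 (-1.01) in DU6 vs DUKs, and of Ifngr1 (1.46), Ctsh (-1.27) and Irf1 (-1.05) in DU6i vs DBA.

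H2-DMb1, the partner chain of H2-DMa, gave 4577.3 in DU6, 3270.3 in DU6i, 1323.7 in DUKs and 3072.5 in DBA. It was under the floor in DUKs alone, so that DU6 was at least 2.03-fold above DUKs (log2 bound 1.02), and DU6i vs DBA was 0.09. The floor doubled took this difference to 0.02. Of the chains of DO, which restrains DM, H2-Oa and H2-Ob were never above the floor.

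Of the factors that switch on class II genes, Ciita, Nfya, Nfyb, Nfyc and Creb1 had probe sets and none was above the floor in any line, so the arrays gave no ratio for them. Of the list of endosomal proteases and other genes of antigen processing, 7 of 7 genes on the chips were above the floor. Ctss, the cathepsin that trims the invariant chain, gave 10287.8 in DU6, 7211.4 in DU6i, 9195.9 in DUKs and 4287.1 in DBA, with a log2 ratio of 0.16 for DU6 over DUKs and 0.75 for DU6i over DBA. Ctsh, an aminopeptidase cathepsin, was at 10791.2, 6584.8, 8282 and 15838.9 and was lower in DU6i than in DBA (-1.27). It was the 1 gene of that list past 2-fold in DU6 vs DUKs or DU6i vs DBA, while in other pairs Ctss, Ctsd and Cst3 passed it: Ctss and Ctsd were 2.40-fold and 2.32-fold higher in DU6 than in DBA, Ctss was 2.15-fold higher in DUKs than in DBA, and Cst3 was 2.11-fold lower in DU6 than in DU6i.

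Interferon-gamma is the main inducer of class II genes outside of B cells and dendritic cells. Ifngr1, a chain of its receptor, gave 6114.4 in DU6, 7809.5 in DU6i, 4156.4 in DUKs and 2828.9 in DBA, with a log2 ratio of 0.56 for DU6 over DUKs and 1.46 for DU6i over DBA. Irf1, a factor that it induces, went the other way in DU6i vs DBA (-1.05) and was at -0.05 in DU6 vs DUKs. Ifng itself was never above the floor. Cd52, a surface peptide of lymphocytes and macrophages kept on the list of costimulation and turnover, was highest in DUKs at 26609.9 and lowest in DU6 at 13215.4 (-1.01).

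Class II transcript in fat comes largely from immune cells in the tissue, and genes that mark such cells were read beside it. Of the macrophage and myeloid genes, 17 of 19 measured had a positive log2 ratio in DU6 vs DUKs (median 0.51, beside 0.10 over all genes). Csf1r, Mpeg1, Lgals3 and Ccl6 were at least 2-fold higher, 4 of 19, and 0 were lower. Of all genes 9.31% passed 2-fold in either direction. In DU6i vs DBA 16 of 18 had a positive ratio (median 0.70 beside -0.08). Adgre1, Cd68, Itgb2, Mrc1, Lgals3 and Ccl9 were at least 2-fold higher, 6 of 18, and 0 were lower, beside 11.1% in either direction. The median of the macrophage and myeloid genes was 0.37 in DU6i vs DUKs and 0.72 in DU6 vs DBA. Within a side it was 0.38 both in DU6 vs DU6i and in DUKs vs DBA. Their summed signal on chip B was 149321.8 in DU6, 122493.7 in DU6i, 97629.2 in DUKs and 78176.6 in DBA, and on chip A 84503.5, 97006.8, 87625.5 and 62350.5. Csf1r, the receptor of the macrophage growth factor, was at 13954.9, 10081.9, 6719.7 and 6451.9. In the summed signals DU6 was highest and DBA lowest on chip B, and DU6i highest and DBA lowest on chip A. Of the sum on chip A, Lyz2 alone gave 19243.8, 41964.3, 34012.8 and 26092.4 in the same order of lines. The part of macrophages in the class II results was not tested.

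Of the B cell genes on the chips, 5 of 13 were above the floor in a line, and Cd79a, Cd22, Pax5, Cr2, Cd37, Fcer2a, Cd72 and Pou2af1 were not. Their summed signal on chip A was 18874 in DU6, 20821.1 in DU6i, 18584.8 in DUKs and 10210.4 in DBA, of which 1 probe set of the immunoglobulin gene Ighm gave 13172.6, 16522.9, 7881.1 and 5069.4. On chip B, Ighm gave 47733.1, 28829.1, 24834.9 and 23596.8. Other members had other orders. Jchain, which joins immunoglobulin units, was above the floor in DUKs alone, at 2638.5 (bound of -1.37 for each DU6 line over DUKs). Ms4a1, the B cell surface protein CD20, gave 3185.4 in DU6, 1415 in DU6i, 6079.6 in DUKs and 2680.2 in DBA. Jchain and Ms4a1 each had another probe set on chip A that was under the floor in every line. Of the dendritic cell genes 3 of 6 were above the floor, with summed signals on chip A between 10989.8 in DUKs and 12989.5 in DU6i, and Flt3, Ccr7 and Ly75 were not. The part of both cell types in the class II results was not tested.

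Adipocyte genes, the check of the tissue, were above the floor for 10 of 10 on the chips. Their signals differed between the lines: 8 of 10 had a negative log2 ratio in DU6 vs DUKs (median -0.74). In DU6i vs DBA 10 of 10 had a positive one (0.86). In DU6 vs DU6i, 7 of 10 were at least 2-fold lower (median -1.19), beside 8.37% of all genes past 2-fold in either direction. All 7 were read on chip A. On chip B, Cidec was at 0.64 and Cd36 at 0.04 in that pair, where the chip A probe set of Cd36 was at -0.92. Germ cell and male tract genes were also present: 11 of 11 were above the floor in a line. In DU6, 6 of 8 measured fell 2-fold or more short of DUKs, beside 9.31% of all genes past 2-fold in either direction. In DU6i, 10 of 11 fell 2-fold or more short of DBA, beside 11.1%. The seminal vesicle genes Svs2, Svs4 and Svs5 gave 19922.5, 42807.3 and 43837.3 in DBA on chip B and were under the floor in the other 3 lines, the pattern of H2-Ea on both chips. Whether that tissue bears on the H2-Ea signal was not tested. The control probe sets of pyruvate carboxylase, which compare the middle of a transcript with its 3′ end as a measure of RNA length, gave 15.3% in DU6, 54.5% in DU6i, 53.9% in DUKs and 19.5% in DBA on chip A, so that DU6 and DBA stood apart from DU6i and DUKs. The part of adipocyte share and of RNA length in the class II results was not tested.

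The genes nearest in pattern were named by the root mean square distance of log2 signals centred on their mean over the 4 lines, on the same chip. Nearest to K01925_f_at were Slc6a13 (distance 0.26) and Lpgat1 (0.30), of 3419 candidate probe sets. Slc6a13, a transporter of GABA and taurine, was at 3986.7 in DU6, 6785.2 in DU6i, 1259.9 in DUKs and 1567.5 in DBA. Nearest to u13648_s_at was Pdxdc1 (0.15), at 10918.5 in DBA and under the floor elsewhere, then Mdk (0.55), of 3421. Nearest to x00958_s_at were Stard10 (0.27), at 2999.5, 2515.4, 10048 and 9765.8, and Aldh1a7 (0.51), of 951. With 4 lines, nearness in pattern is a description of these arrays.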

How the data were processed

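Total RNA of 4 pools was hybridised to 2 chips each, 8 arrays in all. Per the labels, Data Mining Tool 1.2 and Microarray Suite 4.0.1 computed the signals, which were scaled over all probe sets of an array; the deposited values are intensity on a linear scale. Global scaling leaves differences in RNA length and composition in the values. Detection calls were not used. Probe sets were named from the platform annotation where it gives 1 symbol. The members and lists were chosen with earlier results of these data known.

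Signals were floored at the value given above and compared as log2 within a chip, where 3045 to 3334 probe sets were above the floor on an array of chip A and 1639 to 1823 on chip B. limma 3.58.1 in R 4.3.3 (lmFit, eBayes, Benjamini-Hochberg adjustment over both chips) took probe sets that passed the floor on 2 or more of the 4 arrays, and was tested on simulated data. Python 3.11.15 did the rest. Lists take a gene by its probe set with the highest mean signal. Named were all class II probe sets, listed genes at 2-fold in DU6 vs DUKs or DU6i vs DBA where a result turns on them, and the 2 nearest patterns. Floors, scaling, the filter, the fold and each left-out line were varied. With 1 pool per line, limma's p-values measure the spread between lines alone.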

Additional observations from a re-analysis of the deposited data

How the results depend on the processing

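No log2 ratio of a class II probe set at 2-fold or more changed sign under any floor or scaling tried. A changed floor alters only the size of a bound and left the ratios of K01925_f_at unchanged, so the floors could not turn these signs. Of all recomputed ratios of class II probe sets, 275 moved by less than the technical SD and 29 by more. The 275 include ratios between signals above every floor tried, which a changed floor cannot move. With the floor halved, 2 probe sets were higher in DU6 vs DBA and 1 in DU6 vs DU6i, in place of 1 and 0, through H2-DMa. With the floor doubled, the lower counts were 0 in DU6 vs DUKs, 0 in DU6i vs DUKs and 1 in DUKs vs DBA, in place of 1, 1 and 2, and 2 in place of 3 in both DU6i vs DBA and DU6 vs DBA, because the bounds shrink: x00958_s_at to -0.93 against DUKs and the chip B probe set of H2-Ea to -0.76 against DBA. At 1.5-fold, 2 were higher in DU6 vs DUKs, likewise 2 in DU6i vs DUKs, in place of 1 each, and at 3-fold 0 were higher in DU6 vs DUKs.

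Of the other pathway genes, the floor halved gave 1 higher in DU6i vs DUKs and 1 lower in DUKs vs DBA, in place of 0 each, and the floor doubled 0 higher in DU6 vs DUKs in place of 1. Adding the floor to the signal gave 0 higher and 0 lower in DU6 vs DUKs, 1 lower in DU6i vs DBA and 0 higher in DUKs vs DBA. Quantile normalisation gave 0 lower in DU6 vs DUKs, 1 lower in DU6i vs DBA and 0 lower in DU6 vs DU6i. Rescaling gave 0 higher in DU6 vs DUKs, 1 lower in DU6i vs DBA and 2 lower in DU6 vs DU6i. Apart from the floors, the cause was not tested.

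In limma the small difference of H2-Aa on the V00832 probe set, -0.08, became 0.03 without DU6 and ranged from -0.32 (without DBA) to 0.15 (without DUKs) over the fits that left out 1 line. That of Cd74, 0.12, ranged from -0.052 (without DU6) to 0.28 (without DU6i); no alternative gave a class II probe set an adjusted p under 0.05. Rescaling moved the median log2 ratio over all probe sets in DU6 vs DUKs from 0.05 to -0.08 and the share of 2-fold calls that were higher from 38.3% to 23.8%, in DU6 vs DU6i from 45.7% to 34.2% and in DUKs vs DBA from 53.2% to 63.6%. No paired analysis was possible because each line has 1 pool. With 1 array per line and chip, only differences well past the technical SD, or between signals clearly above and clearly under the floor, stand out from disagreement of probe sets. Neither measure covers variation of animals or pools.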

Other observations

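A class I gene of the same complex also had probe sets that disagreed, with a split of the lines unlike those of H2-Aa and H2-Eb1. H2-D1, a class I heavy chain, had a probe set, M69069_i_at, at 303.5 in DU6, 158.7 in DU6i, 6945.3 in DUKs and 0.1 in DBA. DUKs alone was above the floor of chip A, at least 6.79-fold above each other line, a pattern of 158 of 6529 probe sets there (2.42%). Another probe set of H2-D1 from the same sequence record, M69069_f_at, gave 9610.5, 30721.9, 21084.7 and 19005.6, above the floor in all 4 lines and lowest in DU6. M69068_f_at on chip A was also lowest in DU6, at 17076.8. From high to low, both ran DU6i, DUKs, DBA and DU6. Among adipocyte genes above the floor on chip A, Adipoq, Retn, Fabp4, Lipe, Lpl and Scd1 had that order, and Lep, Pparg and Cd36 did not. On chip B, x00246_f_at gave 37302.2, 24775.8, 46127.7 and 27907.4 and was lowest in DU6i, so the probe sets of H2-D1 gave different orders. The M69069 probe sets were picked out after their values were seen.

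Psmb9, Psmb8, Tap1 and Tap2, which prepare peptides for class I, lie between the class II chains on chromosome 17. Psmb9, an immunoproteasome subunit, gave 4019.4 in DU6, 2774 in DU6i, 6121.6 in DUKs and 9415.5 in DBA on chip B, with a log2 ratio of -1.76 in DU6i vs DBA, and its probe set on chip A gave -1.30. Psmb8 was at -0.84 and -1.33 on its 2 probe sets in that pair. Tap1, a chain of the peptide transporter, passed the floor in no line but DBA, at 2191.4, with a bound of -1.10, and Tap2 was under the floor in every line. In that list of class I and neighbouring genes, 2 of 12 genes measured in DU6i vs DBA were at least 2-fold lower and 0 higher, beside 11.1% of all genes past 2-fold, and 5 of 12 had a positive log2 ratio, with a median of -0.16 beside -0.08. In DU6 vs DUKs 0 of 11 passed 2-fold, beside 9.31%, with a median of -0.31 beside 0.10.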
